A study of Mus musculus with 2 samples.

Results

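The 7 genes described here, Mir149, Mir342, Mir139, Mir330, Mir488, Mir346 and Mir326, are microRNA (miRNA) genes whose hairpins lie inside protein-coding genes. Most of these hosts have known roles in nerve cells or in signalling, while Eml2, the host of Mir330, encodes a microtubule-binding protein. The miRNA genes were taken by name, through the Ensembl identifiers of the deposited tables, and are 7 of 1973 miRNA genes with a row. Each of the 7 had 10 reads or more in either library, so no member was lost to a filter on low values. The study measured small RNA below 30 nt in forebrain from B6NCrl mouse embryos at embryonic day 12.5, when neural progenitors still divide and the earliest neurons form. It held 1 group of 2 replicates, each a pool of male and female embryos described as healthy, with no genetic change or treatment named. Replicate 1 pooled 120 embryos and replicate 2 pooled 68 embryos, both under 1 donor record, and each pool gave 1 library. With no second tissue, age or treatment, the values below are levels in this tissue and the closeness of 2 pools, and pool, dissection and library preparation cannot be told apart.

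An miRNA gene is read into a primary transcript, from which the enzyme DROSHA cuts a hairpin and DICER then cuts a short duplex. The strand that an Argonaute protein keeps pairs with messenger RNAs mainly through its seed, bases 2 to 8, and lowers their output. A hairpin within an intron, on the strand of its host gene, can be cut from the host's own primary transcript, so that the miRNA and the host's messenger RNA can arise together, although some such miRNAs also have a promoter of their own. The assay read small RNA only, so host messenger RNA was not measured. In whole tissue, fewer cells of a type and less RNA per cell cannot be told apart.

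The seeds are shown because they define which messenger RNAs each miRNA can pair with, and because the members share a seed in 1 case. Each hairpin gives a 5p and a 3p arm. All 7 genes matched the RefSeq miRNA table of GRCm38.p6, with 14 arms, and all 7 hairpins had the position and letters of the GENCODE annotation. Capitals mark the seed, and sequences run 5′ to 3′. The pair with a common seed came from Mir326 and Mir330, which lie in different hosts.
mmu-miR-326-3p: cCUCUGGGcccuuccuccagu
mmu-miR-330-5p: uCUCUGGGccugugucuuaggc
Counted from the 5′ end, these arms carry the same base at 12 of 21 positions, with an unbroken match from position 2 to position 10. The remaining arms of the 7 hairpins had no seed in common with each other.
mmu-miR-149-5p: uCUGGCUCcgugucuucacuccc
mmu-miR-149-3p: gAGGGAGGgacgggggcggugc
mmu-miR-342-5p: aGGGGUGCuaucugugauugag
mmu-miR-342-3p: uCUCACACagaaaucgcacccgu
mmu-miR-139-5p: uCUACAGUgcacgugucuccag
mmu-miR-139-3p: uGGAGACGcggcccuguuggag
mmu-miR-330-3p: gCAAAGCAcagggccugcagaga
mmu-miR-488-5p: cCCAGAUAauagcacucucaa
mmu-miR-488-3p: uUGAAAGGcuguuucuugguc
mmu-miR-346-5p: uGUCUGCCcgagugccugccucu
mmu-miR-346-3p: aGGCAGGGgcugggccugcagc
mmu-miR-326-5p: gGGGGCAGggccuuugugaaggcg
Of the 14 arms, 9 had a seed that no other gene of the table carried. The tables count reads per hairpin and not per arm, so which arm was read is not known for any member.

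The libraries were of similar depth, 11104730 reads in replicate 1 and 11154304 in replicate 2. Reads assigned to miRNA genes on the gene strand numbered 4333194 and 4397107, and a level is the count per 1000000 of these (CPM). Reads that matched several places made up 37.9% of both libraries and stood outside the gene counts. The members were chosen as single-copy hairpins and are less exposed to this than genes with copies. By that choice, none of the 7 hairpins shared a stretch of 20 bases, or of 18, with another annotated hairpin. No member had a read on the opposite strand in either library, which allows levels of up to 0.692 and 0.682 CPM, those of 3 counts. The labelled tissue was checked with neural miRNAs such as Mir137, Mir9-3 and Mir92b. Of 15 listed names, the 11 with a row were read in both libraries and together reached 30384 and 29638 CPM. Their levels were uneven, and Mir92b alone stood at 19420 and 19820 CPM. Mir124a-1 stood at 2.54 and 1.36 CPM, Mir124a-3 at 2.08 and 2.27 CPM, and Mir9-2 at 5.31 and 5.91 CPM. Unlike Mir92b, each of these shares a stretch of 20 bases with another annotated hairpin. Reads that matched several places were not counted, so such low levels are uncertain and do not show absence.

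The members spanned more than 9 doublings, from 20565 CPM for Mir149 to 38.7 CPM for Mir326, with a log2 span of 9.02 on log2(CPM + 1). Together they held 3.71% ± 0.105 of assigned reads (SD, n = 2), with 3.79% in replicate 1 and 3.64% in replicate 2. The 95% Wilson intervals were 3.77% to 3.80% and 3.62% to 3.65%, and such intervals cover counting error only, since reads without molecular identifiers are not independent molecules. Most of this share came from a pair of genes, because Mir149 and Mir342 made up 88.8% and 88.9% of the members' reads. Mir488, Mir346 and Mir326 together made up 0.804% and 0.822%. The 7 genes are therefore a mixed set in level, with members near the top of the table and members that few reads support.

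**Figure D1:**
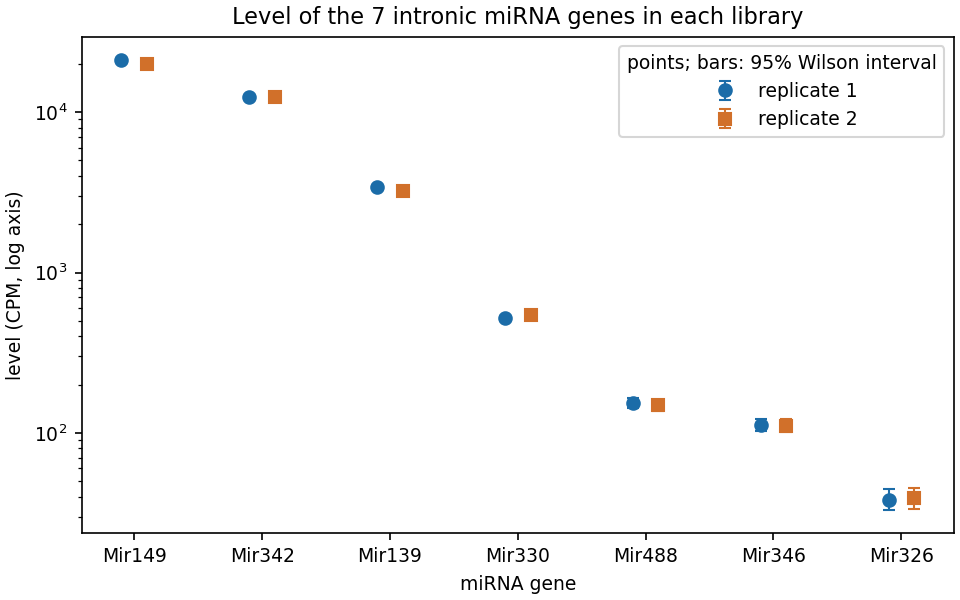
Level of each gene (CPM, log axis) in replicate 1 (circles) and replicate 2 (squares), with 95% Wilson intervals as bars, which the symbols hide for the more abundant genes. The order of the 7 genes is the same in both libraries, from Mir149 at about 20565 CPM down to Mir326 at 38.7 CPM.

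Mir149 (ENSMUSG00000065470.1, mm10 chr1:92850378-92850443, plus strand) was the most abundant member. It lies in intron 1 of 8 of Gpc1, which encodes glypican-1, a cell-surface heparan sulfate proteoglycan that binds growth factors and guidance cues. It gave 91976 reads in replicate 1 and 87517 in replicate 2, or 21226 and 19903 CPM, with a mean of 20565 ± 935.2 CPM (SD, n = 2). It held place 12 of all genes by mean level, with place 11 in replicate 1 and place 13 in replicate 2. Replicate 2 was the lower library. Its hairpin is short, 66 bases, with the arms close to both ends (arms in capitals):
Mir149 hairpin: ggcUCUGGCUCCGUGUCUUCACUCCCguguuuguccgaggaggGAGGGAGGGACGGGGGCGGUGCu

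Mir342 (ENSMUSG00000065436.1, chr12:108658620-108658718, plus strand) came next in level. It lies in intron 3 of 13 of Evl, which encodes an Ena/VASP protein that promotes the growth of actin filaments at the edge of moving cells and growth cones. It gave 53710 and 54594 reads, or 12395 and 12416 CPM, with a mean of 12405 ± 14.8 CPM (SD, n = 2). The libraries were almost equal for this gene, at places 19 and 20. The miRNA is also known from white blood cells, whose markers are given further on.

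Mir139 (ENSMUSG00000065446.1, chr7:101475376-101475443, plus strand) lies in intron 2 of 30 of Pde2a, which encodes a phosphodiesterase that breaks down cyclic nucleotides. The same stretch also lies in an intron of Gm45837, an annotated gene that overlaps Pde2a on the same strand. Mir139 gave 14790 and 14103 reads, or 3413 and 3207 CPM, with a mean of 3310 ± 145.6 CPM (SD, n = 2). As for Mir149, replicate 2 was the lower library, and the gene held place 61 by mean level.

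Mir330 (ENSMUSG00000065543.1, chr7:19181465-19181562, plus strand) lies in Eml2, which encodes a microtubule-binding protein. It gave 2242 and 2388 reads, or 517.4 and 543.1 CPM, with a mean of 530.2 ± 18.2 CPM (SD, n = 2), at place 134. It was the median member in level. The label of an intronic gene held for it only in part. In the transcript Eml2-201 it fills part of intron 1 of 18, only 485 bases long, with 241 bases to the exon before and 146 bases to the exon after. In Eml2-205, a transcript without a coding sequence in the annotation, the hairpin overlaps an exon.
Mir330 hairpin: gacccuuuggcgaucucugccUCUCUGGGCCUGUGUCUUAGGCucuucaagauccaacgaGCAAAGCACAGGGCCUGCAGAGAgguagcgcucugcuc

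Mir488 (ENSMUSG00000070103.2, chr1:158505625-158505733, plus strand) lies in intron 5 of 22 of Astn1, which encodes astrotactin 1, a membrane protein that young neurons use to move along glial fibres. It gave 667 and 654 reads, or 153.9 and 148.7 CPM, with a mean of 151.3 ± 3.67 CPM (SD, n = 2). The hairpin starts 155 bases after the exon before it, in an intron of 4376 bases.

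Mir346 (ENSMUSG00000065481.1, chr14:34894609-34894706, plus strand) lies in intron 2 of 15 of Grid1, which encodes the delta-1 member of the ionotropic glutamate receptor family, a protein of synapses. It gave 486 and 488 reads, or 112.2 and 111.0 CPM, with a mean of 111.6 ± 0.831 CPM (SD, n = 2). Its host is the longest of the 7, at 763.3 kb, and its intron is the longest too, at 123044 bases.

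Mir326 (ENSMUSG00000065571.1, chr7:99552269-99552363, plus strand) was the least abundant member. It lies in intron 1 of 14 of Arrb1, which encodes beta-arrestin 1, an adaptor that ends signalling by G-protein-coupled receptors and carries them into the cell. It gave 166 and 172 reads, or 38.3 and 39.1 CPM, with a mean of 38.7 ± 0.571 CPM (SD, n = 2). With so few reads the 95% Wilson interval ran from 32.9 to 44.6 CPM in replicate 1 and from 33.7 to 45.4 CPM in replicate 2. The spread between the libraries was smaller than this counting error.
Mir326 hairpin: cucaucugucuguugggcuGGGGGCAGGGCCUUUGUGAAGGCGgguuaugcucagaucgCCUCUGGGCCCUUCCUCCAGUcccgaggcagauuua

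**Figure D2:**
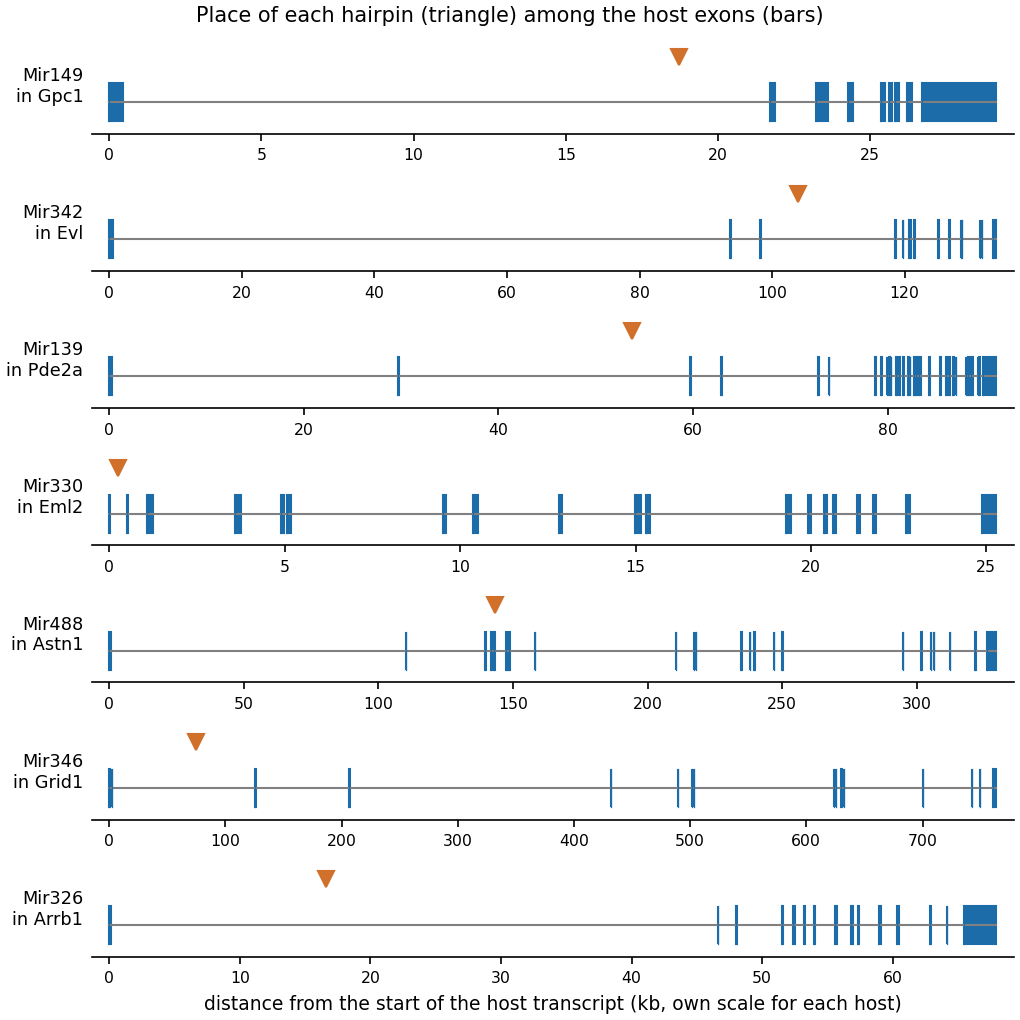
Place of each hairpin (triangle) among the exons (bars) of the host transcript named with the number 201 in the annotation, as distance from the start of that transcript in kb, with a scale of its own for each host. Mir330 lies 0.261 kb from the start of its host transcript, whereas Mir488 lies 143.3 kb and Mir342 103.9 kb from theirs. The annotated gene Eml2 begins further upstream, at chr7:19176421, so the distance for Mir330 holds for Eml2-201 and not for the gene.

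Beside their place in introns, which was part of their choice, the members shared other features of position. All 7 lie on the plus strand, as do their hosts, and each is the only annotated miRNA gene on that strand of its host. The nearest other miRNA gene on either strand was 63129 bases away for Mir342, 94572 bases for Mir330 and at least 385835 bases for the other 5. None of the 7 therefore has a close neighbour with which it could be cut from 1 short transcript. Of the 7, 6 lie outside every annotated exon of the host, and Mir330 is the exception named above. Introns ranged from 485 bases in Eml2 to 123044 bases in Grid1.

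The order of the members was the same in both libraries, and no pair of neighbours in that order overlapped. The closest pair was Mir488 over Mir346, by 1.37-fold in replicate 1 and 1.34-fold in replicate 2. Their 95% Wilson intervals in replicate 1, 142.7 to 166.1 CPM and 102.6 to 122.6 CPM, did not meet. The next closest was Mir149 over Mir342, by 1.71-fold and 1.60-fold. The widest step was Mir139 over Mir330, by 6.60-fold and 5.91-fold. Levels of different genes are compared here in CPM, because a read of this assay covers a mature miRNA and not a piece of a long transcript. Set per 100 bases of annotated hairpin, a scaling chosen after seeing the data, the order of all 7 was the same, from 31158 for Mir149 to 40.8 for Mir326. How efficiently each sequence is ligated and amplified was not measured, so a difference in level between genes is one between read counts.

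Between the seed partners, Mir330 stood above Mir326 by 13.5-fold in replicate 1 and 13.9-fold in replicate 2. Together they reached 569.0 ± 18.7 CPM (SD, n = 2). Since the 3p arm of Mir330 has another seed, this sum is an upper limit for reads with the common seed CUCUGGG. The arm mmu-miR-330-3p shares its seed with mmu-miR-6240, whose gene Mir6240 stood at 9.69 and 19.3 CPM. The arm mmu-miR-149-3p shares its seed with mmu-miR-1943-5p and mmu-miR-7016-5p, and their genes Mir1943 and Mir7016 stood at 2.29 ± 0.624 and 1.71 ± 1.12 CPM (SD, n = 2). These relatives were far below Mir149 and Mir330 in both libraries. The only other relative, mmu-miR-7001-5p of Mir7001 for mmu-miR-346-3p, and the copies of mmu-miR-6967-5p for mmu-miR-149-3p, had no reads.

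Between the pools, the members differed little. Of the 7, 3 were higher and 4 lower in replicate 2, and every fold lay within 10% of equality. For each of 511 genes with a sum of 10 reads or more over the libraries, its reads were set against the rest of the assigned reads in Fisher's exact test, two-sided and with Benjamini-Hochberg adjustment. This compares 2 libraries, not conditions. Over all genes tested 32.7% passed an adjusted p under 0.05, with 103 higher and 64 lower in replicate 2, or 80 higher and 90 lower with edgeR's TMM scaling. Among the members 2 of 7 passed, both lower in replicate 2, where 12.5% of all genes tested passed in that direction. None of the 7 passed with a 2-fold minimum, where 2.74% of all genes did. Calls were more frequent among genes with many reads, at 57.3% of the 262 genes at or above the level of Mir326. The count of 2 in 7 is no result about the members as a set.

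The 2 members that passed were Mir149 and Mir139. Mir149 fell from 21226 to 19903 CPM, a fold of 0.938 (95% exact interval 0.929 to 0.946, Fisher's exact test, adjusted p = 5.66e-42). Mir139 fell from 3413 to 3207 CPM, a fold of 0.940 (0.918 to 0.962, adjusted p = 6.57e-07 by the same exact test). Mir149 dropped by 6.23% and Mir139 dropped by 6.03%, which at 14103 to 91976 reads a library is beyond counting error. A change of this size lies within the spread of ratios between these libraries over all genes tested. With the common dispersion of the libraries, a coefficient of variation of 16.6% over 403 genes, edgeR's exact test gave an adjusted p of 1.00 for both genes. It called 0 of the 7 members, 0 also at an unadjusted p under 0.05, and 5 of 511 genes in all. The dispersion was estimated from these same 2 libraries taken as 1 group, so the differences under test are part of it. This test therefore cannot decide whether so small a change exceeds variation between pools.

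The other 5 members did not pass, and their intervals give the size of change that the counts allow. Mir342, with the most reads of these, stood at 1.00-fold in replicate 2, with an interval of 0.990 to 1.01. Mir330 stood at 1.05-fold, with an interval of 0.990 to 1.11. For Mir488 the fold was 0.966 and the interval 0.866 to 1.08. For Mir346 they were 0.990 and 0.871 to 1.12. Mir326, with the fewest reads, had 1.02-fold and an interval of 0.820 to 1.27. The bounds widen as the read counts fall.

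**Figure D3:**
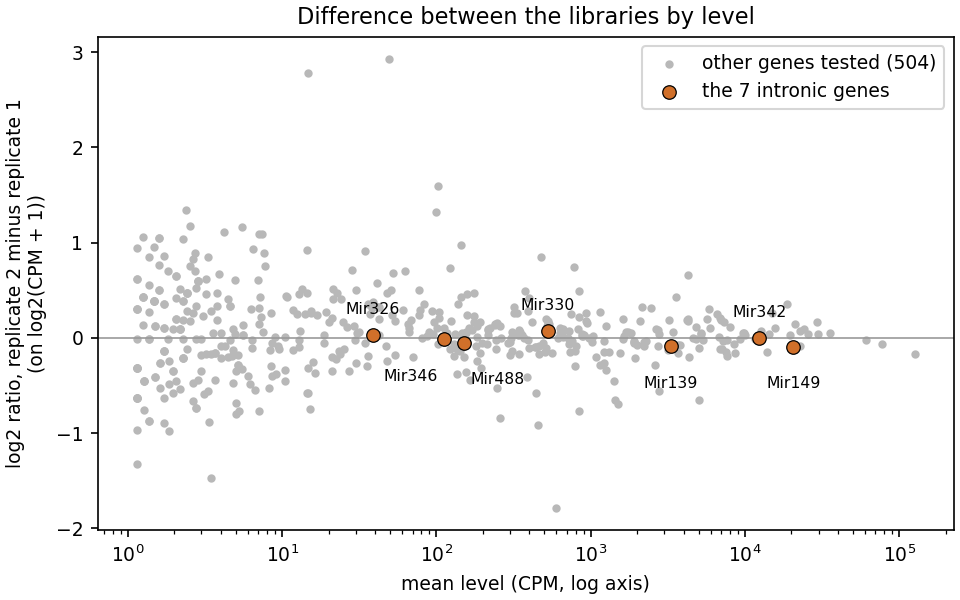
Log2 ratio of replicate 2 to replicate 1, on log2(CPM + 1), against mean level (CPM, log axis) for the 511 genes tested, with the 7 intronic genes as large points. The 7 lie between -0.09 for Mir149 and 0.07 for Mir330, close to the line of no difference.

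On log2(CPM + 1) the median ratio of the members was -0.02, beside 0.04 over the 511 genes tested. Their median absolute ratio was 0.05, beside 0.20 over all genes tested and 0.12 over the 262 genes at or above the level of Mir326. Of these 262 genes, 105 had an absolute ratio no larger than that of Mir149, the most changed member. Differences this small were thus not particular to the members, although most of the 262 genes differed more than Mir149.

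Markers of other cells in the dissected tissue had larger folds between the pools, in their sums, than any member, a difference that was not tested. The endothelial miRNA Mir126a rose from 16564 CPM in replicate 1 to 21180 CPM in the other library. The 7 mesenchymal and mural miRNAs summed to 13294 and 16134 CPM, and the 7 epithelial miRNAs to 13628 and 10008 CPM. The epithelial sum joins opposite directions, since the 5 miR-200 genes Mir200a, Mir200b, Mir200c, Mir141 and Mir429 were lower in replicate 2, while Mir203 went from 1916 to 2401 CPM and Mir205 from 692.1 to 976.3 CPM. The 4 leukocyte miRNAs summed to 393.2 and 479.6 CPM, 1.22-fold higher in replicate 2. The 2 erythroid miRNAs with a row summed to 317.8 and 238.3 CPM, where Mir451a went from 293.1 to 202.9 CPM and Mir144 from 24.7 to 35.5 CPM. Every marker with a row was read in both libraries, and none was at 0. The part of these cells in the levels of the members was not tested.

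Other miRNA genes in introns of neural hosts had log2 ratios between the pools from -0.554 for Mir153 to 0.915 for Mir1264. Of 17 listed genes, 16 lay in the stated host, all with at least 1 CPM, at a median of 48.6 CPM, beside 530.2 CPM for the members. None of the 16 reached Mir149, and 4 stood above Mir330, the median member. These were Mir708 in the teneurin gene Tenm4, Mir153 in Ptprn2, Mir598 in Xkr6 and Mir204 in Trpm3. Fisher's exact test with Benjamini-Hochberg adjustment over all genes found 5 of the 16 higher in replicate 2 and 2 lower, where 20.2% and 12.5% of all genes tested passed in those directions. None passed the 2-fold minimum. The 5 were Mir204 (587.6 to 982.2 CPM), Mir708 (3993 to 4589 CPM) and Mir1298, Mir1264 and Mir448 of the serotonin receptor gene Htr2c, of which Mir1298 stood at 337.2 and 608.6 CPM. The 2 lower genes were Mir153 (3304 to 2251 CPM) and Mir598 (1278 to 1152 CPM). The genes that did not pass were Mir128-2, Mir218-1, Mir218-2, Mir338, Mir490, Mir582, Mir504, Mir1912 and Mir764, and of these Mir128-2 in Arpp21 was highest at 169.5 ± 6.99 CPM (SD, n = 2). Stretches shared with other hairpins make the levels of 4 of the 16 uncertain, and the difference in spread between this list and the members was not tested. The list also holds genes with fewer reads than any member. Mir1264, Mir1298, Mir1912, Mir764 and Mir448 share the host Htr2c, so their ratios are not separate cases.

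Set among all single-copy miRNA genes that lie in an intron of a protein-coding gene on its strand, the members stood high. They were chosen by name with earlier results of these data known, so this standing is a description and not a finding. The other 395 such genes had a median of 0.691 CPM, which is at the level of 3 counts in a library, and 115 of them had no reads. Among the 183 with at least 1 CPM the median was 6.97 CPM. The lowest member, Mir326, was exceeded by 65 of the 395, Mir330 by 34 and Mir149 by 5. Those 5 were Mir335 in Mest, Mir99b in Spaca6, Mir30e in Nfyc, Mirlet7g in Wdr82 and Mir26b in Ctdsp1. Mir26b, at 20975 ± 1526 CPM (SD, n = 2), did not differ from Mir149 beyond their spread. It was below Mir149 in replicate 1, at 19896 CPM, and above it in replicate 2, at 22054 CPM. In this order Mir342 was at place 9, Mir139 at place 23, Mir330 at place 38, Mir488 at place 54, Mir346 at place 60 and Mir326 at place 72 of the 402 genes, members included. Mir330 was placed in this order as a member, although its overlap with an exon would have kept it out of the 395.

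**Figure D4:**
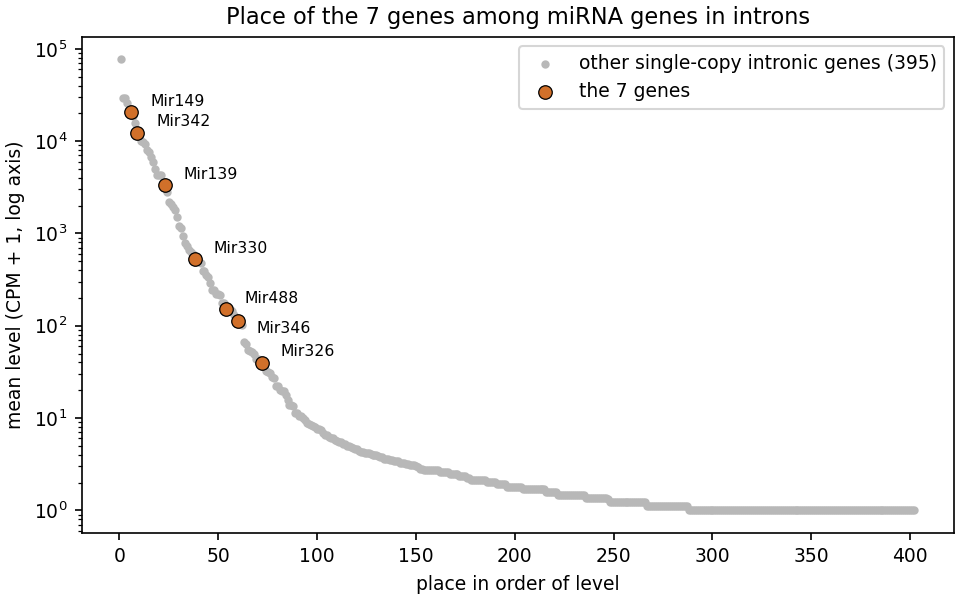
Mean level (CPM + 1, log axis) of 402 single-copy miRNA genes, in order of level, with the 7 members as large points and 395 others in introns of protein-coding genes as small ones. Mir330 is shown as a member although it overlaps an exon. The members take places 6 to 72, and the curve flattens where genes have few or no reads.

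For each member the genes nearest in level over both libraries were found by the distance between their log2(CPM + 1) values, over 2 libraries. Mir92b and Mir26b lay nearest to Mir149, at distances of 0.13 and 0.18. Mir30a and Mir181c lay nearest to Mir342, Mir381 and Mir361 to Mir139, and Mir667 and Mir455 to Mir330. Mir6944 and Mir500 lay nearest to Mir488, Mir103-2 and Mir338 to Mir346, and Mir8112 and Mir1198 to Mir326. The closest of these was Mir6944, in the drebrin gene Dbn1, which stood at 153.5 and 145.1 CPM beside 153.9 and 148.7 CPM for Mir488. Mir103-2 and Mir8112 share a stretch with another hairpin, so their levels are uncertain. With 2 libraries of 1 tissue, likeness here means only a similar level.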

How the data were processed

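Each deposited table holds raw read counts per miRNA gene, not normalised, for both strands together, the gene strand and the opposite strand. The strand columns were told apart from the values, with 97.3% and 97.2% of assigned reads on the gene strand. According to the deposited readme files, the authors took these counts from mm10 alignments, using annotation M4. Which aligner and counter they ran is not given in the sources used here. The 4 rows that name no gene, 61.0% and 60.6% of reads, entered neither library sizes nor tests.

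Symbols and positions came from GENCODE M21 (GRCm38, the build of the files) by Ensembl identifier, which matched 1894 of 1973 genes, and hosts from the same annotation. The libraries differed beyond counting error (chi-square per degree of freedom 59.7), so they are not 1 library deposited under both names. CPM used gene-strand totals, and ratios had 1 added to each CPM as pseudocount. Because each pool gave 1 library, neither edgeR's quasi-likelihood test nor DESeq2 could be fitted between pools. Fisher's exact test with Benjamini-Hochberg adjustment was used in their place. It was tried on simulated counts that had no variation between libraries beyond counting error, and scored with the 2-fold minimum. That trial does not bear on calls without a fold minimum in libraries that differ more than this. A genome sequence was not used here.

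Members and lists were chosen with earlier results of these data known. Named genes were the members, the 2 genes nearest each in level, genes with a shared seed and at least 1 CPM, and the genes of the neural-host list placed in their host. The 5 intronic genes above Mir149, the seed relatives without reads and Gm45837 were named after their values or positions were seen. Alternatives covered the both-strand column, TMM and DESeq2 scaling, the most abundant gene, minimum reads, pseudocounts, edgeR's exact test and leaving out each replicate. Python 3.11.15, SciPy 1.17.1, pandas 2.3.3, R 4.3.3, edgeR 4.0.16, DESeq2 1.42.0 and RNAfold 2.7.2 were used.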

Additional observations from a re-analysis of the deposited data

How the results depend on the processing

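The order of the 7 genes could not change with reads of both strands, since no member had a read on the opposite strand. Nor could it change with TMM or DESeq2 scaling, or without the most abundant gene in the library size. Each of these divides all genes of a library by 1 total, so they are no test of the order. That last setting raised the median level of the members to 606.8 CPM and their share to 4.25%, through the smaller total. Without replicate 1 or replicate 2 the median level was 543.1 or 517.4 CPM and the share 3.64% or 3.79%. The number of members that passed was 2 or 3 with Fisher's exact test under every scaling and minimum tried, and the number of all genes 162 to 178. With edgeR's exact test and the common dispersion they were 0 and 5, since it adds variation between libraries to counting error. That variation was estimated from the same 2 libraries, so the lower counts do not decide which differences are real. The log2 ratio of Mir342 turned to -0.041 with TMM (Fisher's exact test, adjusted p = 1.49e-05), -0.021 with DESeq2 size factors and -0.022 without the most abundant gene, and that of Mir326 to -0.013 with TMM, so neither has a stable direction. Other single-copy intronic genes had a median of 0.745 CPM when 18 bases marked a shared stretch and 6.97 CPM with a minimum of 1 CPM. No paired analysis was possible because there is 1 group. Mir326 and Mir346, with 166 to 488 reads a library, are the members for which depth limits precision most.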

Other observations

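The hairpins of the 7 genes differed in size and composition. Mir149 and Mir139 had the shortest, at 66 and 68 bases, and the other 5 ran from 95 bases for Mir326 to 109 bases for Mir488. GC content was highest in Mir149, at 68.2%, and lowest in Mir488, at 42.2%. The predicted folding energy from RNAfold, not adjusted for hairpin length, ranged from -35.6 kcal/mol for Mir139 to -50.8 kcal/mol for Mir326. The shortest hairpins, Mir139 and Mir149, had the least negative values, at -35.6 and -36.7 kcal/mol. The GC content of single arms was highest in mmu-miR-149-3p, at 81.8%, against 60.9% in the 5p arm of the same hairpin. These are values of the annotated sequences, given as a description over 7 genes.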
